A study of Mus musculus with 34 samples.

Results

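Definitive endoderm (DE) was compared with the epiblast stem cells (EpiSC) it was made from in 4 mouse cell lines of 2 inbred strains. The NOD/ShiLtJ lines were AC576 and AC595, and the NZO/HiLtJ lines were AC653 and AC671. Each line gave 1 EpiSC and 1 DE library, so that 8 of the 34 RNA-seq libraries of the series are described here. They were chosen by their labelled strain and cell type. The tests also used libraries of other strains, which are named with the processing of the data. The fit of DE effects held 28 libraries of 14 lines in 5 strains. Tests within a cell type used all libraries of that type. The mean effect of the 4 lines was also compared with that of 1 other strain, in the last paragraph of the results. NOD/ShiLtJ is used as a model of autoimmune diabetes and NZO/HiLtJ as a model of obesity with diabetes. The labels name the strain as the genotype of each line and give no engineered allele. All lines were kept as EpiSC on irradiated mouse embryonic fibroblasts with FGF at 12.5 ng/mL, activin A at 20 ng/mL and a tankyrase inhibitor at 175 nM. For DE they were moved to laminin and given the GSK3 inhibitor CHIR at 3 uM with activin A at 40 ng/mL for 16 h. For a further 24 h activin A was raised to 100 ng/mL and LDN-193189, which blocks BMP receptors, was added at 100 nM, and cells carrying CXCR4 were then taken with magnetic beads. For EpiSC a stranded kit that selects polyA RNA was used, whereas DE cDNA was amplified from 2 ng of RNA over 12 cycles, so that effects of cell type and of library kit cannot be told apart in any line. No line gave more than 1 library per cell type. P-values measure the spread between lines within strains, pooled over all strains in a fit, so they rest largely on lines of other strains. In these bulk libraries, fewer cells of a type and less RNA per cell cannot be told apart.

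In the embryo, definitive endoderm forms from epiblast cells that pass through the anterior primitive streak, where strong Nodal signalling switches on the endoderm regulators. Activin binds the same receptors and stands in for Nodal in culture. The new endoderm turns off the pluripotency network, led by Pou5f1 (OCT4), Nanog and Sox2, turns on Sox17, Gata6, Hhex and Gsc, and secretes antagonists of Nodal, WNT and BMP such as Cer1, Lefty1 and Dkk1.

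The 8 libraries held 26.5 to 34.2 M (mega) counts. Mitochondrial genes took 2.13 to 2.21% of counts in EpiSC and 0.838 to 2.13% in DE, where the NZO/HiLtJ line AC671 had the lowest share and AC653 the highest. Across 11710 genes, the per-line differences of log2 CPM (counts scaled by library size) between DE and EpiSC correlated with r = 0.842 between the NOD/ShiLtJ lines and r = 0.888 between the NZO/HiLtJ lines. They correlated with r = 0.692 to 0.843 between lines of different strains, and the lowest pair was AC576 with AC653. Genes are not independent replicates, so these are descriptions. In each strain a fold is a log2 difference of DE against EpiSC fitted within lines, with its standard error (SE) and an adjusted p from edgeR's quasi-likelihood test.

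The 3 markers matched the labels in all 8 libraries. Below, the 2 values of a strain are in the order AC576 and AC595 for NOD/ShiLtJ, and AC653 and AC671 for NZO/HiLtJ. Sox17, a transcription factor that specifies endoderm (chromosome 1, 4490931 to 4497354, GRCm38), stood at 2.43 and 0.485 CPM in NOD/ShiLtJ EpiSC and at 364 and 868 CPM in NOD/ShiLtJ DE. In NZO/HiLtJ it stood at 3.42 and 6.04 CPM in EpiSC and at 506 and 876 CPM in DE. No EpiSC value overlapped a DE value, and the log2 fold was 8.77 ± 1.19 (SE, adjusted p = 6.74e-05) in NOD/ShiLtJ and 7.19 ± 1.07 (adjusted p = 0.00016) in NZO/HiLtJ. Cer1, a secreted antagonist of Nodal, WNT and BMP (chromosome 4, 82881751 to 82885148), went from 9.6 and 5.45 CPM to 594 and 1876 CPM in NOD/ShiLtJ and from 45.8 and 62.4 CPM to 4621 and 5637 CPM in NZO/HiLtJ. Both NZO/HiLtJ lines lay above both NOD/ShiLtJ lines in each cell type. The log2 folds were 7.18 ± 1.13 (adjusted p = 0.000235) and 6.58 ± 1.07 (adjusted p = 0.000324), and their difference was not called (0.6, adjusted p = 0.917). Pou5f1, the core regulator of pluripotency (chromosome 17, 35506018 to 35510772), stood at 587 and 517 CPM in NOD/ShiLtJ EpiSC and at 87.7 and 24.9 CPM in DE. In the NZO/HiLtJ lines it stood at 688 and 677 CPM in EpiSC and at 2.01 and 2.39 CPM in DE, well under both NOD/ShiLtJ lines. Pou5f1 fell in each strain, by 3.56 ± 0.69 on the log2 scale in NOD/ShiLtJ (adjusted p = 0.00114) and by 8.28 ± 0.85 in NZO/HiLtJ (adjusted p = 7.8e-06).

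**Figure D1:**
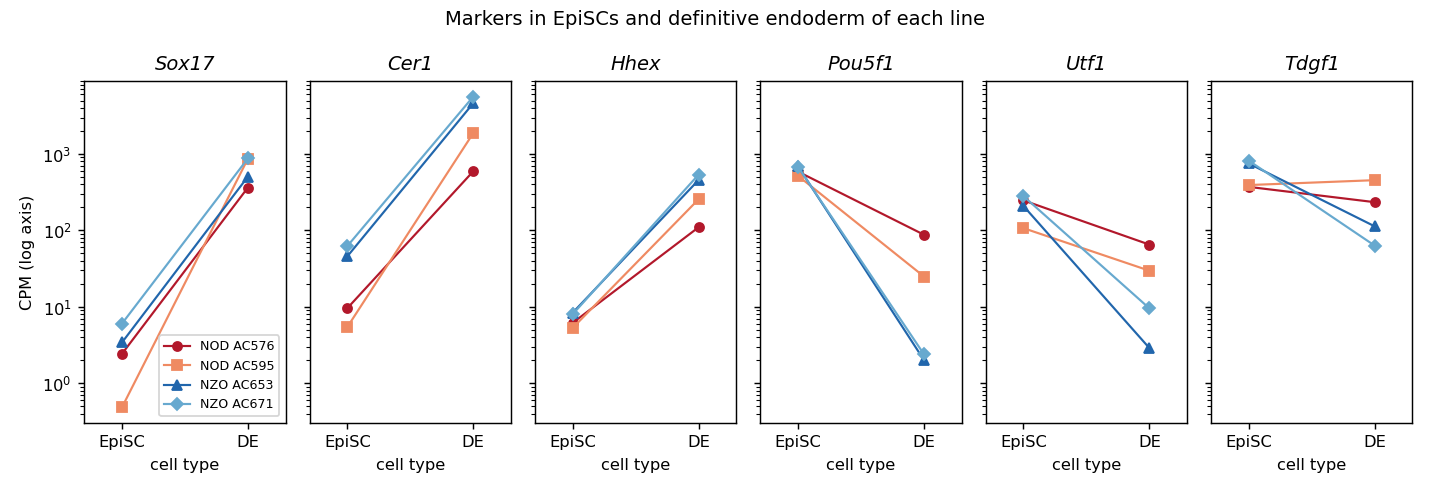
CPM (log axis) of 6 marker genes in the EpiSC and the DE library of each line, with 1 point per library and a line joining the libraries of a cell line. Sox17, Cer1 and Hhex rise in all 4 lines, and Pou5f1, Utf1 and Tdgf1 end lower in the NZO/HiLtJ lines than in the NOD/ShiLtJ lines.

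The promoters of 4 genes that the results turn on are given here, Cer1 and Gsc for the genes that rose in both strains and Pou5f1 and Tdgf1 for those whose fall differed. They are the 250 bases before the RefSeq start on the strand of the gene (RefSeq, GRCm38.p6). Capitals mark matches on either strand to the GC box GGGCGG, to CCAAT, and to AATNNACA, the letters bound by FOXH1, the DNA-binding partner of the SMAD proteins that relay Nodal. No 2 matches overlap. Sox17 is named only.
Cer1, chr4:82885152-82885401, minus strand: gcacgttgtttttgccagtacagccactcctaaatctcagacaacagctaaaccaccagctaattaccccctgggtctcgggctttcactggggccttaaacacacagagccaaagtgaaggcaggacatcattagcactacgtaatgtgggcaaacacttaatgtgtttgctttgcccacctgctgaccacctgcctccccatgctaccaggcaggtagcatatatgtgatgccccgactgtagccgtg
Gsc, chr12:104473237-104473486, minus strand: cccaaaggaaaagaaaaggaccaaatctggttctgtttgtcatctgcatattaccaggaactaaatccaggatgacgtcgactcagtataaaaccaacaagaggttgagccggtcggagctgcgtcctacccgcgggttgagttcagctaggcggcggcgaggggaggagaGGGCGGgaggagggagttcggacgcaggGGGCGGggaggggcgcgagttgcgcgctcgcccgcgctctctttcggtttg
Pou5f1, chr17:35505782-35506031, plus strand: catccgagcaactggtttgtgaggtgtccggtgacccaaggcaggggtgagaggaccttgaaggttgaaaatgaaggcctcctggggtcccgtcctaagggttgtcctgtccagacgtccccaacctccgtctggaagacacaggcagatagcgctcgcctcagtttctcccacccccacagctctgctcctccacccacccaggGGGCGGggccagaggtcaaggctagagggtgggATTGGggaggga
Tdgf1, chr9:110946159-110946408, minus strand: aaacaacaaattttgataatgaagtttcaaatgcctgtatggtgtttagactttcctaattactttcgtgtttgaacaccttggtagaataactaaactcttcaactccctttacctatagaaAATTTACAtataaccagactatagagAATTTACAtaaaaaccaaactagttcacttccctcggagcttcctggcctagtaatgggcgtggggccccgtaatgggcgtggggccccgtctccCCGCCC
The Tdgf1 window holds 2 matches to AATNNACA, and the first begins 127 bases before the start and the second 101 bases before it. Its 1 GC box ends at the last base before the start, on the other strand. The Gsc window holds 2 GC boxes, the Pou5f1 window holds 1 GC box and 1 CCAAT on the other strand, and the Cer1 window holds none of the 3 motifs. Of 27025 promoter windows of this length, 32.9% hold GGGCGG, 11.1% hold AATNNACA and 34.5% hold CCAAT. A match describes these letters only.

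The first comparison asks what the strains share. Of 20585 genes tested, 7822 were called in NOD/ShiLtJ (38% of the genes tested, 20% higher and 18% lower in DE) and 7741 in NZO/HiLtJ (37.6%, with 18.2% higher and 19.4% lower). Both strains called 5544 genes in the same direction (26.9%), 2842 higher (13.8%) and 2702 lower (13.1%). These are 70.9% of the NOD/ShiLtJ calls and 71.6% of the NZO/HiLtJ calls. Opposite calls were made for 34 genes (0.165%). The mean effect of the strains called 10793 genes (52.4%), 5409 higher (26.3%) and 5384 lower (26.2%). Of the 2244 genes called in NOD/ShiLtJ alone, 1940 had the same sign in NZO/HiLtJ, and of the 2163 called in NZO/HiLtJ alone, 1820 had the same sign in NOD/ShiLtJ. The median log2 fold over all genes was 0.06 in NOD/ShiLtJ and -0.06 in NZO/HiLtJ, against which the medians of gene lists below can be read. Each count of called list members below is likewise to be read against the shares of all genes given above, by direction. With 1 line of a strain left out, the other line is taken to vary like the other strains, and the strain's count fell to 5110 without AC576, 4557 without AC595, 4370 without AC653 and 4449 without AC671. The shared count was then 3612 to 4247, and 2169 of the 5544 genes were called in both strains in each of these 4 fits.

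**Figure D2:**
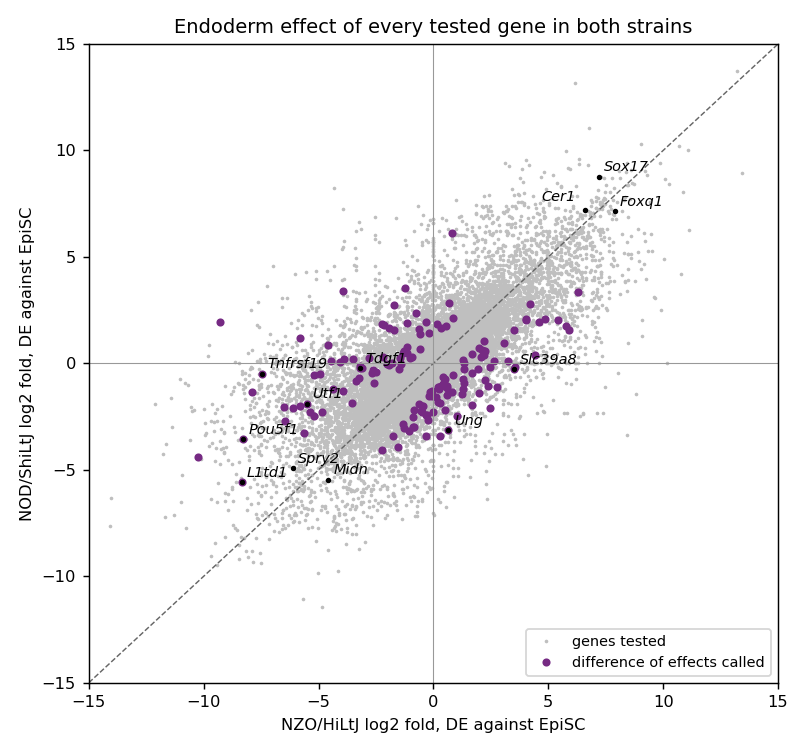
Log2 fold of DE against EpiSC for every tested gene in NZO/HiLtJ (x axis) and NOD/ShiLtJ (y axis), with the line of equality dashed. Purple points are the 153 genes whose folds differed by the test of the difference. Across genes the folds correlated with r = 0.707, and 80.3% of genes had the same sign in both strains. The median absolute difference between the folds was 0.63 on the log2 scale.

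Transcription factors of the endoderm rose together in both strains. Of 16 listed endoderm genes, 12 rose and 1 fell in each strain, 11 rose in both, and the median log2 fold was 4.3 in NOD/ShiLtJ and 4.94 in NZO/HiLtJ. Gata6, a GATA factor of endoderm, went from 3.09 and 2.48 CPM to 88.8 and 213 CPM in NOD/ShiLtJ and from 5.05 and 7.82 CPM to 474 and 472 CPM in NZO/HiLtJ. The log2 folds of Gata6 were 5.64 ± 0.75 and 6.23 ± 0.75 (adjusted p = 5.59e-05 and 2.8e-05). Hhex, a homeobox gene of anterior endoderm and later liver (chromosome 19, 37434810 to 37440731), stood at 6.17, 5.3, 8.37 and 8.01 CPM in the EpiSC of AC576, AC595, AC653 and AC671. In DE it stood at 110 and 256 CPM in NOD/ShiLtJ and at 457 and 538 CPM in NZO/HiLtJ, with log2 folds of 4.88 ± 0.57 and 5.92 ± 0.59 (adjusted p = 1.82e-05 and 5.16e-06). The EpiSC values of Hhex were close together, and the DE values of the strains did not overlap. Gsc, a homeobox gene of the anterior streak (chromosome 12, 104471209 to 104473330), went from 1.94 to 10.4 CPM over the EpiSC libraries to 106 and 216 CPM in NOD/ShiLtJ DE and 238 and 423 CPM in NZO/HiLtJ DE. For Gsc the log2 folds were 6.16 ± 0.87 and 5.55 ± 0.82 (adjusted p = 9.63e-05 and 0.000157). Foxa1, Gata4, Lhx1 and Prdm1 also rose in both strains, with log2 folds of 2.92 to 4.82 in NOD/ShiLtJ and 3.95 to 6.3 in NZO/HiLtJ. No member had a called difference between the strains' folds, and Prdm1 came nearest (-2.2, adjusted p = 0.0629). By the edgeR tests within a cell type, given below, the level of 2 members differed between strains in EpiSC and of 4 in DE. Among the latter, Gata6 and Hhex were lower in NOD/ShiLtJ DE (log2 differences -1.68 and -1.48, adjusted p = 0.0137 and 0.0405). Without AC576 these differences were -1.2 and -1.01. Both calls were lost without AC576, AC653 or AC671.

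Within the endoderm list a few members stood apart. Foxa2, a pioneer factor of endoderm and node, went from 8.29 and 31 CPM to 25.2 and 69.1 CPM in NOD/ShiLtJ, where it rose (log2 fold 1.37 ± 0.4, adjusted p = 0.0129). In NZO/HiLtJ it started higher, at 60.1 and 91 CPM, and stood at 48.8 and 75.4 CPM in DE (log2 fold -0.29 ± 0.38, adjusted p = 0.586). The difference was not called (adjusted p = 0.2), and the NOD/ShiLtJ call was lost without AC576 (adjusted p = 0.151) and without AC595 (adjusted p = 0.0652). Eomes, a T-box factor upstream of endoderm, was expressed before and after, at 72.4 to 141 CPM in EpiSC and 89.8 to 227 CPM in DE, and was called in neither strain. Apela, a peptide ligand of the apelin receptor, went from 20.9 and 16 CPM to 4.44 and 2.07 CPM in NOD/ShiLtJ and from 81.3 and 106 CPM to 7.29 and 5.9 CPM in NZO/HiLtJ. It was the member that fell in each strain, by 2.58 ± 0.58 and 3.82 ± 0.6 on the log2 scale (adjusted p = 0.00293 and 0.00019), and the NOD/ShiLtJ call was lost without AC595 (adjusted p = 0.0682). Krt19, a keratin, rose in both strains (log2 folds 5.1 and 5.97), and its NOD/ShiLtJ call was lost without AC595 (adjusted p = 0.0807). Cxcr4 rose in both strains (log2 folds 3.88 and 2.94), but it encodes the protein used for the sort and is no independent evidence of the cells' identity. Its NOD/ShiLtJ call was lost without AC595 (adjusted p = 0.0686), and its NZO/HiLtJ call without AC653 (adjusted p = 0.101) or AC671 (adjusted p = 0.0527).

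The lines differed in how far the endoderm genes rose. The mean log2 CPM of the list was 2.85 and 2.42 in NOD/ShiLtJ EpiSC and 3.33 and 3.87 in NZO/HiLtJ EpiSC. In DE it was 5.71 in AC576, 6.64 in AC595, 7.19 in AC653 and 7.45 in AC671, so that both NZO/HiLtJ lines were above both NOD/ShiLtJ lines in each cell type. The opposite order held for the mean log2 CPM of the core pluripotency list in DE, with 4.86 in AC576, 3.77 in AC595, 3.33 in AC653 and 2.27 in AC671. The summed CPM of that list ran the other way, at 808, 996, 1285 and 1534 CPM, and Sall4, described below, gave most of the sum in NZO/HiLtJ. By mean log2 CPM, AC576 had the lowest endoderm level and the highest pluripotency level of the 4 DE libraries. The strain differences below are therefore given with each line left out.

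**Figure D3:**
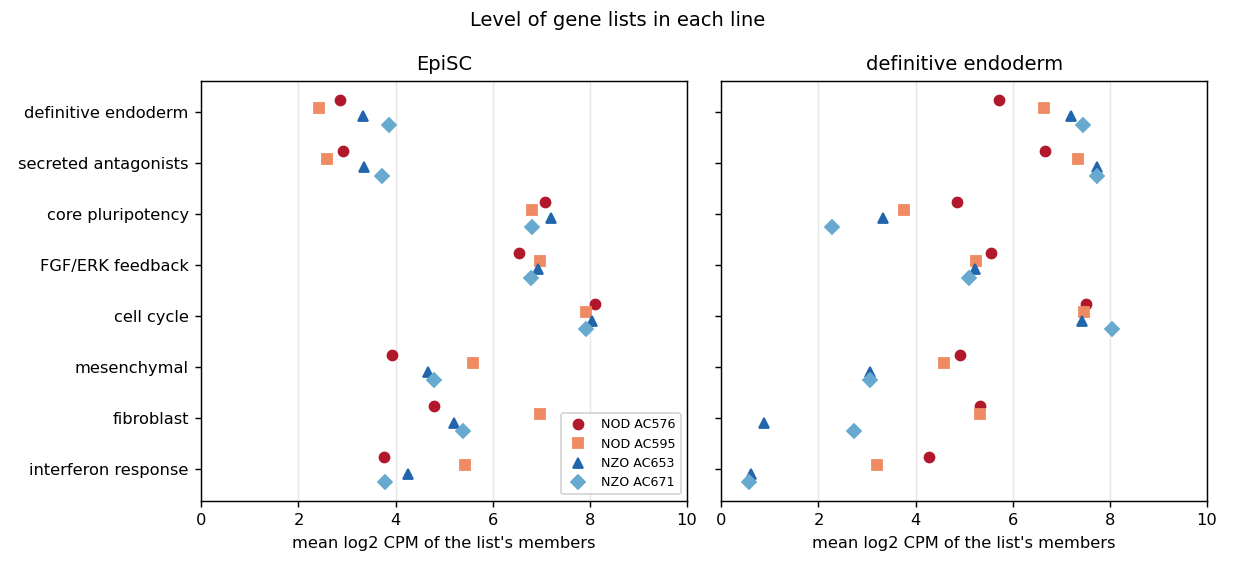
Mean log2 CPM of the members of 8 gene lists in the EpiSC library (left) and the DE library (right) of each line, with 1 point per library. In DE the NOD/ShiLtJ line AC576 has the lowest endoderm level and the highest core pluripotency level, and the fibroblast and interferon lists are lower in both NZO/HiLtJ lines than in the NOD/ShiLtJ lines.

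Secreted antagonists and anterior factors formed a second group that rose. Of 13 listed genes, 11 rose in NOD/ShiLtJ and 10 in NZO/HiLtJ, 10 of them in both, with median log2 folds of 4.72 and 5.91. Dkk1, a WNT antagonist (chromosome 19, 30545863 to 30549665), went from 6.94 and 0.727 CPM to 265 and 407 CPM in NOD/ShiLtJ and from 2.61 and 5.04 CPM to 531 and 176 CPM in NZO/HiLtJ. Dkk1 had log2 folds of 6.92 ± 1.43 and 6.37 ± 1.37 (adjusted p = 0.00176 and 0.00252). Lefty1, a feedback inhibitor of Nodal (chromosome 1, 180935022 to 180938400), went from 206 and 54.8 CPM to 1417 and 3432 CPM in NOD/ShiLtJ and from 25.2 and 54.9 CPM to 2223 and 3826 CPM in NZO/HiLtJ. The DE ranges of the strains overlapped, and AC576 had the highest level in EpiSC and the lowest in DE. Sfrp1, Sfrp5 and Frzb, which bind WNT ligands, and Shisa2, which holds back WNT and FGF receptors, rose by 4.07 to 6.31 on the log2 scale in NOD/ShiLtJ and 4.59 to 7.33 in NZO/HiLtJ. Otx2, a homeobox factor of anterior endoderm and epiblast, rose by 0.97 ± 0.2 in NOD/ShiLtJ (adjusted p = 0.00142, but 0.134 without AC595) and 1.82 ± 0.2 in NZO/HiLtJ (adjusted p = 8.34e-06). Nog, a BMP antagonist, stood at 0.579 and 0.273 CPM in NOD/ShiLtJ EpiSC and at 78.6 and 14.4 CPM in DE, where it rose (log2 fold 6.44 ± 1.33, adjusted p = 0.00153). In the NZO/HiLtJ lines it stood at 0.339 and 0.578 CPM in EpiSC and 2.26 and 2.13 CPM in DE (adjusted p = 0.137). The difference between the strains' folds was not called (adjusted p = 0.311). Its DE level was called higher in NOD/ShiLtJ by the test within DE given below, with a log2 difference of 5.17 without AC595 and 2.66 without AC576. That call was lost without AC576, AC653 or AC671. Fst, which binds activin, fell in NZO/HiLtJ (log2 fold -2.42 ± 0.55, adjusted p = 0.0035, but 0.0596 without AC671) and was not called in NOD/ShiLtJ (log2 fold -1.52 ± 0.6, adjusted p = 0.0596).

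Genes were also ranked over the whole table by the smaller of their 2 folds, and several of the largest shared rises were outside these lists. Pga5, a pepsinogen of the stomach (chromosome 19, 10668956 to 10678071), went from 1.27 and 0.576 CPM to 177 and 761 CPM in NOD/ShiLtJ and from 4.3 and 6.04 CPM to 1958 and 1049 CPM in NZO/HiLtJ. Log2 folds of Pga5 were 8.69 ± 1.49 and 8.13 ± 1.38 (adjusted p = 0.000445 and 0.000453). Foxq1, a forkhead factor (chromosome 13, 31556134 to 31560976), went from 0.364 to 2.12 CPM over the EpiSC libraries to 146 and 154 CPM in NOD/ShiLtJ DE and 283 and 410 CPM in NZO/HiLtJ DE. The log2 folds of Foxq1 were 7.16 ± 0.82 and 7.89 ± 0.83 (adjusted p = 1.67e-05 and 8.92e-06). Asb4, a subunit of ubiquitin ligases, and A4galt, a glycolipid galactosyltransferase, rose by 5.45 to 6.58 in both strains. The 12 ranked genes of this kind kept both calls without each of the 4 lines in turn, except Krt19 as given above.

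The largest shared falls included genes of general function and of signalling. Pip4k2b, a phosphoinositide kinase, went from 122 and 145 CPM to 1.28 and 2.51 CPM in NOD/ShiLtJ and from 174 and 158 CPM to 1.51 and 3.06 CPM in NZO/HiLtJ. For Pip4k2b the log2 folds were -6.18 ± 0.5 and -6.25 ± 0.5 (adjusted p = 5.76e-07 and 6.36e-07). Taf15, an RNA-binding protein of transcription (chromosome 11, 83473086 to 83506743), went from 332 and 258 CPM to 1.83 and 3.54 CPM in NOD/ShiLtJ and from 278 and 287 CPM to 6.27 and 5.83 CPM in NZO/HiLtJ. Midn, Prrc2a, Zc3h7b and Enc1 fell by 4.89 to 5.47 in NOD/ShiLtJ and by 4.59 to 5.96 in NZO/HiLtJ. Rpl23a, a ribosomal protein gene, ranked here too (log2 folds -5.72 and -5.7), but it has near-identical copies and its count is uncertain. All 12 ranked falls kept both calls without each of the 4 lines in turn. The kit changed with the cell type in every line, so a fall shared by all lines cannot be told apart from an effect of the kit.

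Pluripotency genes fell in both strains, and further in NZO/HiLtJ for some of them. Of 12 tested members of the core list of 13, 8 fell in NOD/ShiLtJ and 10 in NZO/HiLtJ, 8 of them in both, with median log2 folds of -3.1 and -4.27. Nanog, a homeobox factor of the network, went from 137 and 165 CPM to 17.1 and 7.82 CPM in NOD/ShiLtJ and from 129 and 109 CPM to 7.12 and 3.25 CPM in NZO/HiLtJ. Nanog had log2 folds of -3.69 ± 0.48 and -4.6 ± 0.5 (adjusted p = 3.38e-05 and 7.72e-06). Lin28a, which blocks processing of let-7 miRNAs, went from 870 and 854 CPM to 49 and 59.7 CPM and from 900 and 858 CPM to 134 and 162 CPM. It fell by 4 ± 0.39 in NOD/ShiLtJ and by 2.57 ± 0.37 in NZO/HiLtJ (adjusted p = 2.77e-06 and 7.86e-05), and the NZO/HiLtJ lines kept more in DE. Sox2, the HMG-box factor of the network, stood at 62.2 to 66.8 CPM in all 4 EpiSC libraries and at 9.03, 2.61, 16.4 and 0.149 CPM in the DE of AC576, AC595, AC653 and AC671. It fell in both strains (log2 folds -3.67 ± 1.18 and -4.38 ± 1.39, adjusted p = 0.0253 and 0.0239), with its highest and its lowest DE level in the NZO/HiLtJ lines. The NOD/ShiLtJ call was lost without AC576 or AC595 (adjusted p = 0.0689 and 0.227), and the NZO/HiLtJ call without AC671 (adjusted p = 0.221). Sall4, a zinc-finger factor shared with early endoderm, rose in NZO/HiLtJ, from 339 and 337 CPM to 986 and 1258 CPM (log2 fold 1.72 ± 0.35, adjusted p = 0.00133). In NOD/ShiLtJ it stood at 383 and 247 CPM in EpiSC and at 270 and 381 CPM in DE (log2 fold 0.06, adjusted p = 0.911). The difference between the strains' folds was not called (adjusted p = 0.144). Its DE level was called lower in NOD/ShiLtJ by the test within DE given below (log2 difference -2.04 without AC595 and -1.61 without AC576). That call was lost without AC576, AC653 or AC671.

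Genes of the primed epiblast did not move as a block. Of 13 listed genes, 3 rose and 6 fell in NOD/ShiLtJ, and 5 rose (3 without AC653) and 7 fell in NZO/HiLtJ, with median log2 folds of -0.95 and -1.22. Fgf5, the growth factor that marks primed epiblast, rose in both, from 169 and 242 CPM to 518 and 874 CPM in NOD/ShiLtJ and from 272 and 306 CPM to 1397 and 1447 CPM in NZO/HiLtJ. Log2 folds of Fgf5 were 1.73 ± 0.19 and 2.3 ± 0.19 (adjusted p = 6.85e-06 and 8.29e-07), and no DE value overlapped an EpiSC value. Zic2, a zinc-finger factor of epiblast and neural plate, fell from 257 and 163 CPM to 3.96 and 6.51 CPM in NOD/ShiLtJ and from 181 and 187 CPM to 14.5 and 8.29 CPM in NZO/HiLtJ (log2 folds -5.32 and -4.06). Epha2, an ephrin receptor, fell by 2.41 ± 0.21 and 3 ± 0.22 on the log2 scale. Pou3f1, a POU factor of epiblast, stood at 71 to 103 CPM in the 4 EpiSC libraries, at 205 and 42.4 CPM in NOD/ShiLtJ DE and at 8.97 and 11.8 CPM in NZO/HiLtJ DE. It fell in NZO/HiLtJ (log2 fold -3.3 ± 0.57, adjusted p = 0.000484) and was not called in NOD/ShiLtJ (0.2 ± 0.57, adjusted p = 0.817). The difference between these folds came near the threshold (adjusted p = 0.0633). The DE level of Pou3f1 was called higher in NOD/ShiLtJ by the test within DE given below (log2 difference 4.31 without AC595 and 1.98 without AC576). That call was lost without AC576, AC653 or AC671. Of 11 naive pluripotency genes, Dppa3, Prdm14 and Tcl1 were too low to test, 2 rose in each strain, 3 fell in NOD/ShiLtJ and 1 fell in NZO/HiLtJ. Without AC576 1 rose and 1 fell in NOD/ShiLtJ, without AC595 none fell there, and none was called in NZO/HiLtJ without AC671. Fgfbp1, which carries FGF in the extracellular space, gave most of the list's level in DE and rose from 24.4 and 6.42 CPM to 291 and 126 CPM and from 10.1 and 13.9 CPM to 51.4 and 207 CPM (log2 folds 3.93 ± 0.66 and 3.13 ± 0.65). The NZO/HiLtJ call of Fgfbp1 was lost without AC671 (adjusted p = 0.0636). Esrrb, a nuclear receptor of naive cells, was at 0.733 to 1.21 CPM in EpiSC, and Zfp42, a core gene too low to test, was at most 0.11 CPM in any library.

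Nodal pathway genes went both ways. Of 14 genes, 6 rose and 4 fell in NOD/ShiLtJ, and 8 rose and 4 fell in NZO/HiLtJ, with median log2 folds of 0.36 and 1.04. Without AC595 the NOD/ShiLtJ count of higher genes was 3. Nodal itself stood at 183 and 96.5 CPM in NOD/ShiLtJ EpiSC and at 179 and 142 CPM in DE (log2 fold 0.26 ± 0.27, adjusted p = 0.473). In NZO/HiLtJ it rose from 60.5 and 63.6 CPM to 149 and 215 CPM (log2 fold 1.53 ± 0.27, adjusted p = 0.00054), and the difference was not called (adjusted p = 0.158). Cfc1, a co-receptor of Nodal, went from 0.771 and 0.454 CPM to 32 and 143 CPM in NOD/ShiLtJ and from 1.25 and 2.16 CPM to 106 and 70.1 CPM in NZO/HiLtJ (log2 folds 6.87 and 5.69). Acvr1b, the type I receptor of activin and Nodal, fell from 45.9 and 48.6 CPM to 2.75 and 7.85 CPM in NOD/ShiLtJ and from 62.5 and 58.5 CPM to 10.9 and 10.5 CPM in NZO/HiLtJ (log2 folds -3.31 and -2.5). Smad7, an inhibitory SMAD, fell by 2.65 ± 0.36 and 2.33 ± 0.36 on the log2 scale. Tdgf1, the other co-receptor, parted between the strains and is described below.

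Feedback and target genes of FGF and ERK signalling mostly fell. Of 11 genes, 8 fell in NOD/ShiLtJ and 6 in NZO/HiLtJ, 6 of them in both, and 1 rose in both, with median log2 folds of -0.99 and -1.35. Spry2, an inhibitor of receptor tyrosine kinase signalling (chromosome 14, 105891947 to 105896819), went from 126 and 210 CPM to 6.13 and 4.78 CPM in NOD/ShiLtJ and from 213 and 182 CPM to 3.6 and 2.17 CPM in NZO/HiLtJ. Its log2 folds were -4.91 ± 0.41 and -6.13 ± 0.44 (adjusted p = 7.63e-07 and 2.89e-07). Its relative Spry1 rose by 1.69 ± 0.33 and 1.72 ± 0.33, from 20.4 to 22.8 CPM over the EpiSC libraries to 64.4 to 76.5 CPM over the DE libraries. Dusp6, an ERK phosphatase, was called in neither strain, at 134 and 298 CPM in NOD/ShiLtJ EpiSC and 159 and 154 CPM in DE. Egr1, an immediate early gene, fell in NOD/ShiLtJ, from 160 and 206 CPM to 55.5 and 28.1 CPM (log2 fold -2.2 ± 0.39, adjusted p = 0.000493). It stood at 142 and 95.8 CPM in NZO/HiLtJ EpiSC and at 125 and 119 CPM in DE (log2 fold 0.06, adjusted p = 0.918), and the difference was not called (adjusted p = 0.0711).

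Over all genes tested, 20% were higher and 18% lower in NOD/ShiLtJ DE, and 18.2% and 19.4% in NZO/HiLtJ DE. WNT targets went both ways. Of 13 genes, 4 rose and 4 fell in NOD/ShiLtJ and 2 rose and 5 fell in NZO/HiLtJ. Without AC595 the NOD/ShiLtJ count of lower genes was 2. Axin2, the feedback scaffold of the pathway, fell from 46.9 and 49.8 CPM to 3.05 and 2.34 CPM in NOD/ShiLtJ and from 37.8 and 32 CPM to 0.468 and 0.448 CPM in NZO/HiLtJ (log2 folds -4.17 ± 0.69 and -6.24 ± 0.79). T (brachyury), a WNT target of the primitive streak, stood at 59.9 and 93.6 CPM in NOD/ShiLtJ EpiSC and at 42.8 and 13.6 CPM in DE, and was not called there (log2 fold -1.62 ± 1.13, adjusted p = 0.283). In the NZO/HiLtJ lines it fell from 101 and 105 CPM to 1.18 and 0.784 CPM (log2 fold -6.7 ± 1.39, adjusted p = 0.00191). The difference between the strains' folds was not called (5.08, adjusted p = 0.21). The DE level of T was called higher in NOD/ShiLtJ by the test within DE given below (log2 difference 5.44 without AC595 and 3.73 without AC576). That call was lost without AC576, AC653 or AC671. In the BMP list, which holds ligands and targets, 8 of 13 genes rose in NOD/ShiLtJ and 6 in NZO/HiLtJ, where 1 fell. Without AC576 the NOD/ShiLtJ count of higher genes was 5. Id3, a helix-loop-helix inhibitor induced by BMP, rose from 18.9 and 18 CPM to 160 and 139 CPM and from 11.5 and 15.4 CPM to 216 and 158 CPM (log2 folds 3.01 and 3.8). Bmp2, a ligand, rose from 3.97 and 8.57 CPM to 123 and 149 CPM and from 9.49 and 12.2 CPM to 335 and 504 CPM (log2 folds 4.52 and 5.25).

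Epithelial keratins rose, and mesenchymal genes fell in NZO/HiLtJ. Of 12 epithelial genes, 6 rose and 2 fell in NOD/ShiLtJ (3 rose without AC595) and 8 rose in NZO/HiLtJ. Krt18, a keratin of simple epithelia, went from 251 and 125 CPM to 3433 and 1623 CPM in NOD/ShiLtJ and from 38.6 and 45.5 CPM to 1274 and 1318 CPM in NZO/HiLtJ (log2 folds 3.73 ± 0.62 and 4.95 ± 0.66). Cldn6, a tight junction claudin, rose to 741 to 1100 CPM in DE from 120 to 250 CPM in EpiSC (log2 folds 1.85 and 2.9). Cdh1 (E-cadherin) was called in opposite directions, from 1198 and 827 CPM to 865 and 447 CPM in NOD/ShiLtJ and from 567 and 517 CPM to 918 and 939 CPM in NZO/HiLtJ. Its log2 folds were -0.68 ± 0.26 (adjusted p = 0.0494) and 0.78 ± 0.26 (adjusted p = 0.0271). The difference between these folds was not called (adjusted p = 0.0893). The Cdh1 fall in NOD/ShiLtJ was lost without each of the 4 lines (adjusted p = 0.0584 to 0.391), and the rise in NZO/HiLtJ without AC653 or AC671 (adjusted p = 0.114 and 0.2).

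Of 10 mesenchymal genes, 7 fell in NZO/HiLtJ. Cdh2 (N-cadherin) rose in both strains and was the called member in NOD/ShiLtJ, and its NZO/HiLtJ call was lost without AC653 (adjusted p = 0.208). The count of 7 was 2 without AC653 and 4 without AC671. Vim, an intermediate filament of mesenchyme, stood at 250 and 775 CPM in NOD/ShiLtJ EpiSC and 734 and 649 CPM in DE, and fell from 325 and 399 CPM to 37.2 and 162 CPM in NZO/HiLtJ (log2 fold -2.21 ± 0.6, adjusted p = 0.011, but 0.242 without AC653). A difference between the strains' folds was called for no mesenchymal gene. By the test within DE given below, the DE level of 1 of the 10 genes was called different between strains.

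Fibroblast genes were measured as markers of the feeder cells. Of 15 listed genes, 2 fell in NOD/ShiLtJ and 10 in NZO/HiLtJ, where the count was 2 without AC653 and 9 without AC671. The summed level of the list was 991 and 4625 CPM in NOD/ShiLtJ EpiSC, 1512 and 1560 CPM in NZO/HiLtJ EpiSC, 1944 and 1614 CPM in NOD/ShiLtJ DE, and 150 and 343 CPM in NZO/HiLtJ DE. AC595 stood apart in EpiSC, and the NZO/HiLtJ DE libraries lay under all others. Col1a1, the main fibroblast collagen, was at 195, 856, 302 and 321 CPM in EpiSC of AC576, AC595, AC653 and AC671, and at 430, 198, 4.59 and 48.4 CPM in DE. Thy1, a fibroblast surface protein, fell in both strains, from 29.7 to 123 CPM over EpiSC to 0.0275 to 2.34 CPM over DE. S100a4 was listed at 0 CPM in EpiSC of AC653 and in DE of AC653 and AC671, and Lum was at 0 in DE of AC653. No fibroblast gene had a called difference of effects. Their part in the strain differences below was not tested.

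Some markers of other fates were called. Of all genes tested, 38% were called in NOD/ShiLtJ and 37.6% in NZO/HiLtJ, in either direction. Higher in DE were 20% and 18.2%, and lower were 18% and 19.4%. The lists below are short, and several of their counts of rises lie above the share for that direction. Most of these counts changed with a line left out, and they are not read as a change of fate. Of 14 mesoderm genes, 5 rose in each strain and 4 in both, but the NZO/HiLtJ count was 1 without AC653 and the NOD/ShiLtJ count was 2 without either of its lines. Their summed level in DE was 138 and 106 CPM in NOD/ShiLtJ, and 198 CPM in AC653 against 38.2 CPM in AC671. Pdgfra, a receptor of mesoderm and extraembryonic endoderm, went from 4.13 and 15.9 CPM to 24 and 54.8 CPM and from 5.42 and 6.35 CPM to 78 and 22.6 CPM, and its call was lost without AC576, AC595 (adjusted p = 0.13 and 0.0504) or AC653 (adjusted p = 0.0944). Kdr, a receptor of vascular mesoderm, was called in neither strain, and 1 mesoderm gene fell in NZO/HiLtJ. Of 11 tested neuroectoderm genes, 3 rose and 2 fell in each strain, but only 1 rose in NOD/ShiLtJ without either line and in NZO/HiLtJ without AC653. Nes, an intermediate filament of neural progenitors, fell from 549 and 279 CPM to 146 and 34.8 CPM and from 277 and 283 CPM to 19.6 and 36.2 CPM (log2 folds -2.45 and -3.4), while Sox1 was at most 0.908 CPM in any library. The summed level of 14 extraembryonic endoderm genes was 509, 1414, 477 and 517 CPM in EpiSC of AC576, AC595, AC653 and AC671, and 2267, 1278, 721 and 640 CPM in DE. Most of it was Sparc, a matrix protein that fibroblasts also make, at 494, 1372, 458 and 493 CPM in EpiSC and 2187, 1205, 603 and 577 CPM in DE, which was called in neither strain. Dab2, an endocytic adaptor, stood at 6.52 to 21.7 CPM in EpiSC and 6.77 to 45.7 CPM in DE and was also called in neither. Ttr and Fgb were at 0 in all 8 libraries, Afp was at most 0.33 CPM and Sox7 at most 1.65 CPM. Of the 11 tested, 2 rose in NOD/ShiLtJ (Pdgfra and Rhox5) and 4 in NZO/HiLtJ (these, Apoa1 and Hnf4a). These counts were 1 without AC576 and 1 without AC653. The DE levels of the 4 were at most 78 CPM, that of Pdgfra in AC653.

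Counts of interferon and MHC class I genes are read against all genes tested. Of these, 38% were called in NOD/ShiLtJ (18% lower) and 37.6% in NZO/HiLtJ (19.4% lower). In either direction, the MHC class I counts, given last, lie under the NOD/ShiLtJ share and near the NZO/HiLtJ share. Interferon response genes fell in NZO/HiLtJ. Of 12 genes, 8 fell there (3 without AC653 and 5 without AC671) with a median log2 fold of -3.72, against 0 that fell and 1 that rose in NOD/ShiLtJ, with a median of -1.15. Without AC576, 4 fell in NOD/ShiLtJ. Ifitm3, a membrane protein that blocks virus entry, stood at 93.7 and 196 CPM in NOD/ShiLtJ EpiSC and at 135 and 51.4 CPM in DE (adjusted p = 0.501). In NZO/HiLtJ it fell from 85.5 and 81.9 CPM to 2.97 and 3.29 CPM (log2 fold -4.74 ± 0.83, adjusted p = 0.000566). Bst2, a tether of budding viruses, fell in NZO/HiLtJ from 66.4 and 58.6 CPM to 14.4 and 6.24 CPM (log2 fold -2.71 ± 0.55, adjusted p = 0.00144, but 0.0518 without AC671). The smallest adjusted p for a difference between the strains' folds in this list was 0.116 (Ifitm3), so the folds were not shown to differ here. By the test within DE given below, the DE level of 3 of the 12 genes was called different between strains, among them Ifitm3. The call of Ifitm3 was lost without AC576, AC653 or AC671. Of 12 genes of MHC class I presentation, 2 rose in NOD/ShiLtJ (none without AC576), and 1 rose and 4 fell in NZO/HiLtJ, where no fall was called without AC653 or without AC671.

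The lists for metabolism, the cell cycle, imprinting and p53 held called genes of each direction in each strain. Of all genes tested, 38% were called in NOD/ShiLtJ and 37.6% in NZO/HiLtJ. Of 14 genes of glycolysis and the hypoxia response, 5 rose and 1 fell in NOD/ShiLtJ (2 rose without AC595), and 7 rose and 1 fell in NZO/HiLtJ. Slc2a3, a glucose transporter, rose from 475 and 371 CPM to 3623 and 2329 CPM and from 285 and 293 CPM to 3134 and 3110 CPM (log2 folds 2.79 ± 0.31 and 3.43 ± 0.32). Gapdh stayed between 2193 and 2953 CPM in all 8 libraries and was called in neither strain. Of 15 cell cycle genes, 7 fell in NOD/ShiLtJ (4 without either line) and 4 in NZO/HiLtJ (2 without AC653), and 1 rose in each. Pcna, the replication clamp, fell from 413 and 322 CPM to 108 and 120 CPM and from 339 and 318 CPM to 134 and 148 CPM (log2 folds -1.68 and -1.22). Of 13 cholesterol synthesis genes, 1 rose and 2 fell in NOD/ShiLtJ and 4 rose and 1 fell in NZO/HiLtJ (none rose in NOD/ShiLtJ without AC576, and 1 in NZO/HiLtJ without AC671). These 3 and 5 called genes of 13 are a share below that over all genes in NOD/ShiLtJ and near it in NZO/HiLtJ. Of 20 imprinted genes, 4 rose and 7 fell in NOD/ShiLtJ (1 rose without AC576) and 4 rose and 8 fell in NZO/HiLtJ (3 fell without AC671). Mest, a paternally expressed gene of mesoderm and growth, rose from 79 and 90.9 CPM to 315 and 543 CPM and from 85.9 and 105 CPM to 1525 and 757 CPM (log2 folds 2.29 and 3.5). Rian, a maternally expressed long RNA, fell from 813 and 907 CPM to 24 and 37 CPM and from 700 and 689 CPM to 66.5 and 58.9 CPM (log2 folds -4.85 and -3.47). Of 11 p53 targets, 3 rose and 3 fell in NOD/ShiLtJ (1 rose without AC576, 1 fell without AC595), and 2 rose and 3 fell in NZO/HiLtJ (none rose without AC653, 1 fell without either line).

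The second comparison asks where the strains part, by a test of the difference between their effects. It called 153 genes (0.743% of the genes tested), 69 with a higher effect in NOD/ShiLtJ (0.335%) and 84 with a lower one (0.408%), and 2535 genes had an unadjusted p under 0.05. The balance of directions turned without AC595 (173 higher and 81 lower) and without AC653 (8 and 5), but not without AC576 (5 and 12) or AC671 (15 and 18). It also turned without the replicate block (188 and 131), with no count filter (661 and 443), with DESeq2 (476 and 426) and with the libraries of the 2 strains alone (41 and 33). Of the 153, 44 were called in both strains in the same direction, 86 in 1 strain alone and 23 in opposite directions. The levels of the strains differed by the tests within each cell type in EpiSC alone for 29 genes, in DE alone for 77, in both for 15 and in neither for 32. The count rests on single lines, with 13 genes without AC653, 17 without AC576, 33 without AC671 and 254 without AC595. It was 63 to 339 without a line of another strain. Of the 153 genes, 8 were called without each of the 4 lines in turn, among them Slc39a8 and Ung, which are described below.

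**Figure D4:**
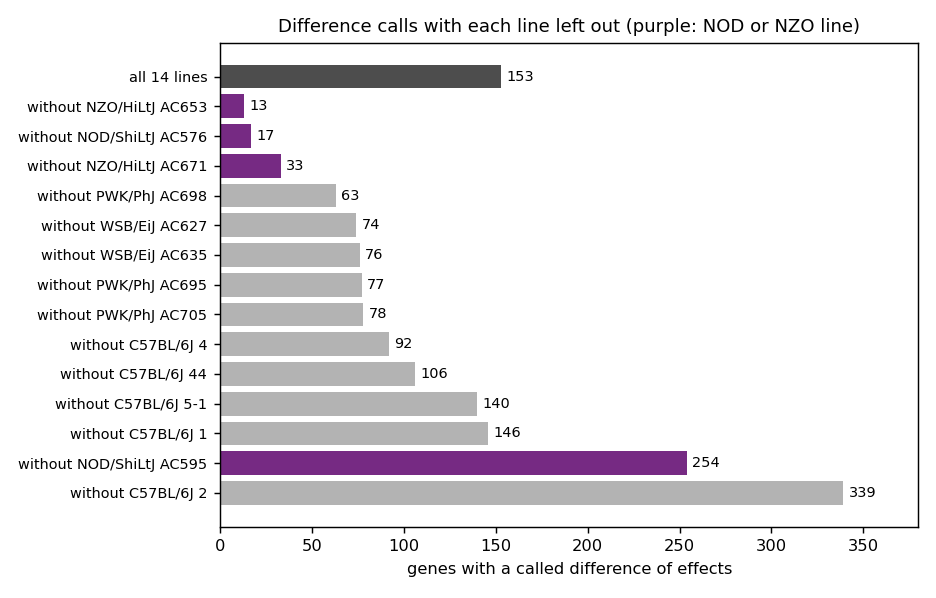
Number of genes with a called difference of effects (x axis, bars from 0) with all 14 lines of the 5 strains in the fit and with each line left out, purple where the line left out is a NOD/ShiLtJ or NZO/HiLtJ line. The count of 153 ranges from 13 without AC653 to 339 without a C57BL/6J line.

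Pluripotency genes were among those that parted, and 4 of the 12 tested core genes had a higher effect in NOD/ShiLtJ. For Pou5f1, whose values are given above, the difference was 4.73 ± 0.95 on the log2 scale (adjusted p = 0.0414). It was 5.54 without AC595 (adjusted p = 0.0369), 3.91 without AC576 (adjusted p = 0.314), 4.56 without AC653 (adjusted p = 0.226) and 4.86 without AC671 (adjusted p = 0.161), so that the call did not hold without AC576, AC653 or AC671. It was also lost without 7 of the 10 lines of other strains, where the size was 4.7 or 4.73 and the adjusted p 0.0503 to 0.0666. The EpiSC levels of Pou5f1 were not called different between strains (log2 difference -0.29, adjusted p = 0.309), and the DE levels were near the threshold (4.67, adjusted p = 0.0562). Utf1, a chromatin protein of pluripotent cells (chromosome 7, 139943789 to 139945112), went from 247 and 107 CPM to 65.2 and 29.7 CPM in NOD/ShiLtJ and from 209 and 281 CPM to 2.89 and 9.56 CPM in NZO/HiLtJ. EpiSC values overlapped and DE values did not, and the difference was 3.62 ± 0.62 (adjusted p = 0.0184), lost without AC576 (adjusted p = 0.125) and AC653 (adjusted p = 0.174). L1td1, an RNA-binding protein of pluripotent cells (chromosome 4, 98726734 to 98738480), fell from 865 and 743 CPM to 26.5 and 10.5 CPM in NOD/ShiLtJ and from 1150 and 1090 CPM to 3.11 and 3.77 CPM in NZO/HiLtJ. Its difference of 2.77 ± 0.59 (adjusted p = 0.0466) kept its call only without AC595 among the 4 lines (adjusted p = 0.0395) and reached an adjusted p of 0.384 without AC576.

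Tdgf1 (Cripto, chromosome 9, 110939603 to 110946158), the co-receptor that lets Nodal bind its receptors and whose promoter is printed above, fell in NZO/HiLtJ and was not called in NOD/ShiLtJ. It stood at 371 and 392 CPM in NOD/ShiLtJ EpiSC and at 234 and 454 CPM in DE (log2 fold -0.23 ± 0.32, adjusted p = 0.606). In the NZO/HiLtJ lines it fell from 751 and 818 CPM to 113 and 63.2 CPM (log2 fold -3.21 ± 0.34, adjusted p = 6.37e-06). NZO/HiLtJ was above NOD/ShiLtJ in EpiSC and below it in DE, with no overlap in either. The strain difference was -1.02 in EpiSC (adjusted p = 0.0331) and 1.94 in DE (adjusted p = 0.0132), and the difference of effects was 2.99 ± 0.46 (adjusted p = 0.00879). The EpiSC difference was not called without any of the 4 lines (adjusted p = 0.107 to 0.185), nor the DE difference without AC595 (adjusted p = 0.0683) or AC671 (adjusted p = 0.125). The difference of effects was called without AC576, AC595 and AC653 (2.55 to 3.44, adjusted p = 0.0349 to 0.0401) and not without AC671 (2.5, adjusted p = 0.111).

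Slc39a8 (chromosome 3, 135825279 to 135888572), a zinc and manganese importer, had the smallest adjusted p among the ranked difference genes. It stood at 180 and 126 CPM in NOD/ShiLtJ EpiSC and at 111 and 141 CPM in DE (log2 fold -0.27 ± 0.2, adjusted p = 0.316). In NZO/HiLtJ it rose from 32 and 25 CPM to 321 and 327 CPM (log2 fold 3.52 ± 0.22, adjusted p = 1.29e-07). NOD/ShiLtJ was above NZO/HiLtJ in EpiSC (log2 difference 2.45, adjusted p = 0.00449) and below it in DE (-1.39, adjusted p = 0.049), with no overlap. The EpiSC call was lost without AC671 (adjusted p = 0.0655) and the DE call without any of the 4 lines (adjusted p = 0.0994 to 0.343). The difference of effects was -3.79 ± 0.3 (adjusted p = 5.27e-05) and was called in each of the 14 fits that left out 1 line (-4.22 to -3.36 over the 4 lines). Ung (chromosome 5, 114130386 to 114139323), the glycosylase that removes uracil from DNA, stood at 65.2 to 76.4 CPM in all 4 EpiSC libraries. In DE it stood at 6.61 and 9.69 CPM in NOD/ShiLtJ and at 105 and 101 CPM in NZO/HiLtJ. It fell in NOD/ShiLtJ (log2 fold -3.14 ± 0.35, adjusted p = 7.8e-06) and was not called in NZO/HiLtJ (0.65 ± 0.31, adjusted p = 0.12). The difference of -3.79 ± 0.46 (adjusted p = 0.00355) was also called in each of the 14 fits, at -4.18 to -3.41 without 1 of the 4 lines (adjusted p at most 0.0401).

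**Figure D5:**
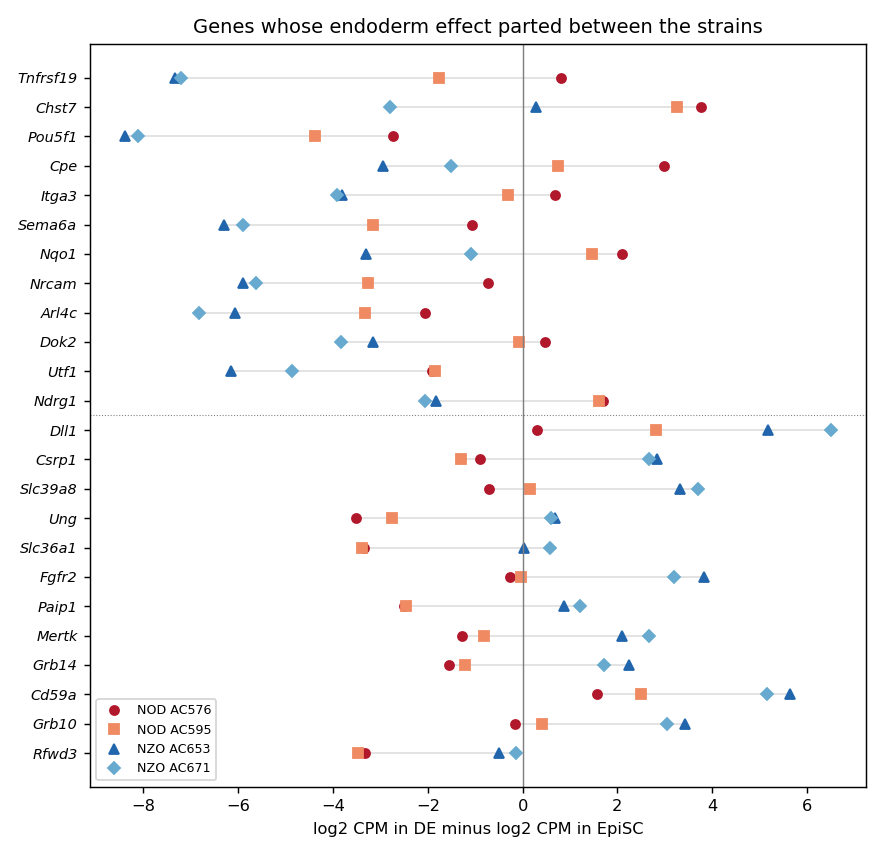
Difference of log2 CPM between DE and EpiSC in each line (x axis) for the 12 genes with the largest higher effect in NOD/ShiLtJ (above the dotted line) and the 12 with the largest lower effect (below it), with 1 point per line. By the rule that chose them, the points of the 2 strains do not overlap for any gene.

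The 12 ranked genes with a higher effect in NOD/ShiLtJ fell in NZO/HiLtJ, except Chst7, which rose in NOD/ShiLtJ and was not called in NZO/HiLtJ. Tnfrsf19, a receptor and WNT target (chromosome 14, 60963875 to 61046490), stood at 25.5 and 43.5 CPM in NOD/ShiLtJ EpiSC and 44.5 and 12.8 CPM in DE. In the NZO/HiLtJ lines it fell from 76.6 and 80.8 CPM to 0.413 and 0.486 CPM (log2 fold -7.45 ± 1.08, adjusted p = 0.000132), and the difference was 6.97 ± 1.32 (adjusted p = 0.0371). Itga3, an integrin subunit that binds laminin (chromosome 11, 95044474 to 95076801), stood at 172 and 77.2 CPM in NOD/ShiLtJ EpiSC and 278 and 62.6 CPM in DE, and fell from 88.8 and 93.5 CPM to 6.27 and 6.13 CPM in NZO/HiLtJ. Its difference was 4.07 ± 0.63 (adjusted p = 0.00932). Arl4c, a small GTPase, fell in both strains, from 178 and 121 CPM to 42.3 and 11.9 CPM and from 113 and 121 CPM to 1.62 and 1.01 CPM, with a difference of 3.78 ± 0.58 (adjusted p = 0.00887). Etv1, an ETS factor induced by FGF, did likewise, from 79.9 and 100 CPM to 23.1 and 14.9 CPM and from 79.1 and 72.2 CPM to 3.47 and 1.9 CPM (difference 2.59 ± 0.55, adjusted p = 0.0466). The calls of Tnfrsf19, Itga3, Arl4c and Etv1 were lost without AC576 (adjusted p = 0.224, 0.117, 0.114 and 0.369 in this order), without AC653 (0.209, 0.0898, 0.0712 and 0.187) and without AC671 (0.157, 0.0914, 0.111 and 0.242). Of the 12 ranked genes, 0 kept the call without AC576, 9 without AC595, 1 without AC653 and 1 without AC671.

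Among the genes with a lower effect in NOD/ShiLtJ, some began at a different level and some ended at one. Fgfr2, an FGF receptor (chromosome 7, 130162451 to 133123350), stood at 21.8 and 13.1 CPM in NOD/ShiLtJ EpiSC and 18.3 and 12.7 CPM in DE, and rose from 2.74 and 3.89 CPM to 39.5 and 36 CPM in NZO/HiLtJ. Grb14, an adaptor that restrains the insulin receptor (chromosome 2, 64912476 to 65024987), fell from 42.7 and 38.4 CPM to 14.4 and 16.4 CPM in NOD/ShiLtJ and rose from 3.18 and 3.58 CPM to 15.3 and 11.8 CPM in NZO/HiLtJ. The strains differed in EpiSC for Fgfr2 (log2 difference 2.41, adjusted p = 0.00411) and Grb14 (3.6, adjusted p = 1.64e-05), and overlapped in DE for Grb14. The EpiSC call of Fgfr2 was lost without AC653 (adjusted p = 0.0656), and the fall of Grb14 in NOD/ShiLtJ without AC576 (adjusted p = 0.0856). The difference of effects was -3.68 ± 0.6 (adjusted p = 0.0131) for Fgfr2 and -3.39 ± 0.48 (adjusted p = 0.00659) for Grb14. Paip1, a translation factor (chromosome 13, 119428601 to 119458218), was at 77.3 to 83.8 CPM in EpiSC, and stood at 13.7 and 14.9 CPM in NOD/ShiLtJ DE and 153 and 179 CPM in NZO/HiLtJ DE (difference -3.53 ± 0.65, adjusted p = 0.0286). Rfwd3, a ubiquitin ligase of DNA repair, likewise stood at 148 to 197 CPM in EpiSC, at 19.6 and 15.8 CPM in NOD/ShiLtJ DE and at 117 and 134 CPM in NZO/HiLtJ DE (difference -3.08 ± 0.45, adjusted p = 0.00695). Dll1, a Notch ligand (chromosome 17, 15367354 to 15376872), rose in both, from 7.33 and 3.18 CPM to 9.06 and 22.8 CPM and from 1.19 and 0.963 CPM to 44.7 and 92.9 CPM (difference -4.33 ± 0.81, adjusted p = 0.0296, and a NOD/ShiLtJ fold with an adjusted p of 0.755 without AC595). Grb10, an imprinted relative of Grb14 (chromosome 11, 11930508 to 12038683), stood at 222 and 142 CPM in NOD/ShiLtJ EpiSC and 197 and 188 CPM in DE, and rose from 84.2 and 84.6 CPM to 900 and 702 CPM in NZO/HiLtJ. Its difference of -3.12 ± 0.63 (adjusted p = 0.0405) was not called without any of the 4 lines (adjusted p = 0.0594 to 0.305). The differences of Fgfr2, Rfwd3 and Dll1 were called only without AC595 among the 4 lines, that of Grb14 only without AC595 or AC671, and that of Paip1 in none of these 4 fits. Of the 12 ranked genes on this side, 2 kept the call without AC576, 10 without AC595, 2 without AC653 and 4 without AC671.

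Within the gene lists, calls of a difference were few. Cyp51, a sterol demethylase, went from 349 and 276 CPM to 479 and 358 CPM in NOD/ShiLtJ and rose from 248 and 220 CPM to 743 and 744 CPM in NZO/HiLtJ (difference -1.26 ± 0.27, adjusted p = 0.0487), and was not called without any of the 4 lines (adjusted p = 0.114 to 0.263). Dnajb1, a chaperone of the heat shock response, went from 104 and 63 CPM to 127 and 127 CPM and from 54.5 and 48.9 CPM to 185 and 266 CPM (difference -1.46 ± 0.3, adjusted p = 0.0405). Its call remained only without AC595 among the 4 lines, and was weakest without AC576 (adjusted p = 0.357).

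Of the 34 genes called in opposite directions, 18 rose in NOD/ShiLtJ and fell in NZO/HiLtJ and 16 did the reverse, and 23 also had a called difference. Cpe, a prohormone-processing carboxypeptidase (chromosome 8, 64592542 to 64693054), rose from 35.9 and 142 CPM to 283 and 238 CPM in NOD/ShiLtJ and fell from 85.9 and 95.7 CPM to 11.1 and 33.6 CPM in NZO/HiLtJ. Its log2 folds were 1.86 ± 0.61 (adjusted p = 0.0268) and -2.22 ± 0.6 (adjusted p = 0.00985), and were not called without AC576 (adjusted p = 0.443) and without AC653 (adjusted p = 0.194). Nqo1, a quinone reductase of the antioxidant response (chromosome 8, 107388225 to 107403206), rose from 17.2 and 31.8 CPM to 73.5 and 88.3 CPM in NOD/ShiLtJ and fell from 10.8 and 11.7 CPM to 1.05 and 5.49 CPM in NZO/HiLtJ. The DE values did not overlap, and the folds of 1.78 ± 0.58 and -2.17 ± 0.63 (adjusted p = 0.0238 and 0.0141) were lost without AC576 or AC595 (adjusted p = 0.212 and 0.0948) and without AC653 (adjusted p = 0.327). Tmem150c was the reverse case, from 47.4 and 21.2 CPM to 8.84 and 7.42 CPM in NOD/ShiLtJ and from 0.881 and 1.46 CPM to 4.7 and 2.88 CPM in NZO/HiLtJ. Its calls were lost without AC576 in NOD/ShiLtJ (adjusted p = 0.15) and without AC653 in NZO/HiLtJ (adjusted p = 0.3).

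The strains were then compared at fixed cell type. In EpiSC, 1401 of 17868 genes were called (7.84%), 682 higher in NOD/ShiLtJ (3.82%) and 719 lower (4.02%). In DE, 578 of 19290 were called (3%), 387 higher in NOD/ShiLtJ (2.01%) and 191 lower (0.99%). Both cell types called 154 genes, 144 in the same direction, which is 11% of the EpiSC calls and 26.6% of the DE calls. The submitters' processing notes name the reference mm10, which is of C57BL/6J, so that a strain difference in level and a difference in alignment cannot be told apart. Vcp-rs, a copy related to Vcp (chromosome X, 104345829 to 104348234), was at 208 and 183 CPM in NOD/ShiLtJ EpiSC against 4.68 and 5.54 CPM in NZO/HiLtJ, and at 355 and 323 CPM against 10 and 9.82 CPM in DE. Its count is uncertain because it shares sequence with Vcp. Sfn, an epithelial 14-3-3 protein, was higher in NOD/ShiLtJ in each cell type, at 96.2 and 24.1 CPM against 5.42 and 5.08 CPM in EpiSC and at 758 and 238 CPM against 33.3 and 10.9 CPM in DE (log2 differences 3.54 ± 0.78 and 4.49 ± 0.82, adjusted p = 0.0164 and 0.00984). Its EpiSC call held only without AC595 among the 4 lines (adjusted p = 0.103 to 0.144 without the others), and its DE call was lost without AC576 or AC671 (adjusted p = 0.106 and 0.104). Trh, the thyrotropin-releasing hormone, listed here as an endoderm gene, was lower in NOD/ShiLtJ EpiSC, at 22 and 34.9 CPM against 184 and 715 CPM (log2 difference -3.97 ± 1, adjusted p = 0.0329), but the call held only without AC653 among the 4 lines (adjusted p = 0.108 to 0.226 without the others). In DE it stood at 24.2 and 220 CPM against 1060 and 1972 CPM (adjusted p = 0.103). Wnt7b, a WNT ligand, was at 0.678 to 1.33 CPM in EpiSC, and stood at 127 and 41 CPM in NOD/ShiLtJ DE against 0.578 and 3.96 CPM in NZO/HiLtJ DE (log2 difference 5.22 ± 0.84, adjusted p = 0.00469, and 0.0511 without AC576). Without 1 NOD/ShiLtJ or NZO/HiLtJ library, the EpiSC count ranged from 419 (without AC671) to 1233 (without AC595) and the DE count from 76 (without AC576) to 645 (without AC595). In between, the EpiSC count was 470 without AC653 and 767 without AC576, and the DE count 135 without AC653 and 165 without AC671.

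Against the 5 C57BL/6J lines, whose DE effect called 62.3% of genes, the mean effect of the NOD/ShiLtJ and NZO/HiLtJ lines differed for 274 genes (1.33%), 189 with a higher effect (0.918%) and 85 with a lower one (0.413%). Fhl3, a LIM protein, stood at 48.6 to 58 CPM in NOD/ShiLtJ EpiSC and 32.9 to 38 CPM in NZO/HiLtJ EpiSC, and at 23 to 69.8 CPM over the 4 DE libraries. It was called in neither strain, and its effect was 4.9 ± 0.29 above that of C57BL/6J (adjusted p = 1.34e-06), where it fell by 5.13 on the log2 scale. Tuft1 rose in NOD/ShiLtJ and NZO/HiLtJ, from 6.39 to 7.06 CPM over EpiSC to 18.5 to 49.3 CPM over DE, with a NOD/ShiLtJ call lost without AC576 (adjusted p = 0.0661), and its effect was 3.37 ± 0.38 above that of C57BL/6J (adjusted p = 0.000927). Zfp146, a zinc-finger gene, fell from 76.5 to 108 CPM over EpiSC to 4.37 to 6.11 CPM over DE, by 2.31 ± 0.31 more than in C57BL/6J (adjusted p = 0.00284). No member of the endoderm list had a called difference from C57BL/6J. The count was 37 without AC653, 45 without AC576, 522 without AC595 and 185 without AC671, and 107 to 716 without a line of another strain.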

How the data were processed

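The authors deposited raw counts per gene for 34 RNA-seq libraries. Per the submitters' processing notes, STAR 2.4, HTSeq 0.6.1, DESeq2 and mm10 were used; the sources used here give neither the annotation release nor the strand setting. Of 53655 genes, 20585 that reached 10 counts in 3 or more libraries were tested with edgeR 4.0.16 (R 4.3.3, limma 3.58.1; TMM scaling, robust quasi-likelihood F test, Benjamini-Hochberg, threshold 0.05). The fit used 28 libraries of 14 lines in 5 strains, with the line as a block and 1 DE effect per strain, leaving 9 residual degrees of freedom. These strains were NOD/ShiLtJ, NZO/HiLtJ, C57BL/6J, PWK/PhJ and WSB/EiJ. Strains were compared within a cell type over all libraries of that type, which include those of CAST/EiJ and DBA/2J. The block follows the design, as both libraries of a pair came from the same cell line. The deviations of paired libraries correlated weakly (median r = 0.0532, over 0.1 in 6 of 14 lines, -0.0228 in NOD/ShiLtJ and 0.0378 in NZO/HiLtJ).

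CPM values are TMM-scaled, and log2 CPM adds a prior count of 2. Named genes are members of 26 lists or ranked by size. Shared genes are the 12 largest per direction by the smaller fold, with mean log2 CPM 4 or above and the same direction in all 4 lines. Difference genes are the 12 largest per direction at a mean of at least 3 with per-line differences that do not overlap. The rule also took 6 opposite genes, 6 per direction for strain levels and 5 per direction against C57BL/6J, and passed over predicted genes. The members and lists were chosen with earlier results of these data known. Alternatives were RLE scaling, no or a stricter count filter (50 counts in 4 libraries), DESeq2 1.42.0, no block, fewer libraries and leaving out each line. Only the test of the difference of effects was run on simulated counts, which had no line effects and less spread than the data. That run does not measure error rates in these data. Gene positions are from GENCODE (GRCm38). Libraries held 26.5 to 34.2 M counts, and replicate lines differed by more than counting noise. Figures used Python 3.11.15 and matplotlib 3.10.9. Results on some genes are not reported here.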

Additional observations from a re-analysis of the deposited data

Results flagged for a closer look

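The effect of differentiation differed between NOD/ShiLtJ and NZO/HiLtJ for 153 genes by the test of the difference itself (edgeR, quasi-likelihood, adjusted p under 0.05), and the values here are log2 differences, NOD/ShiLtJ minus NZO/HiLtJ. Among genes of the lists, the effect was higher in NOD/ShiLtJ for Pou5f1 (4.73), Utf1 (3.62), Tdgf1 (2.99), L1td1 (2.77) and Etv1 (2.59), and lower for Grb10 (-3.12), Dnajb1 (-1.46) and Cyp51 (-1.26). Among the ranked genes it was higher for Pstpip1 (7.35), Tnfrsf19 (6.97), Chst7 (4.78), Cpe (4.08), Itga3 (4.07), Sema6a (4.02), Nqo1 (3.95), Nrcam (3.81), Arl4c (3.78), Dok2 (3.72) and Ndrg1 (3.61). It was lower for Btn2a2 (-4.57), Dll1 (-4.33), Csrp1 (-3.86), Slc39a8 (-3.79), Ung (-3.79), Slc36a1 (-3.69), Fgfr2 (-3.68), Tmem150c (-3.66), Paip1 (-3.53), Mertk (-3.42), Grb14 (-3.39), Cd59a (-3.38), Rfwd3 (-3.08), Tmem14c (-2.72) and Npm3 (-2.37). Of these genes, Slc39a8 and Ung were called without each of the 4 NOD/ShiLtJ and NZO/HiLtJ lines in turn, and Tdgf1 without 3 of them.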

How the results depend on the processing

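Without the replicate block the difference of effects called 319 genes and the difference from C57BL/6J 638, and without the block no other count moved by over 1.5 times. With no count filter these counts were 1104 and 1405, and the strain difference in DE 1828. With DESeq2 they were 902, 1393 and 1760, and the strain difference in EpiSC 2105. With the libraries of the 2 strains alone, the difference of effects called 74 genes and the EpiSC strain difference 175. Leaving out 1 line, the count ranged from 4557 to 8572 in NOD/ShiLtJ, 4370 to 8475 in NZO/HiLtJ, 3612 to 6228 shared, 13 to 339 for the difference of effects, 37 to 716 against C57BL/6J, 419 to 1233 for strain levels in EpiSC and 76 to 645 in DE. The cause was not tested. The share of difference calls higher in NOD/ShiLtJ was 45.1%, 52.8% with DESeq2, 55.4% with the 2 strains alone, 58.9% without the block, 59.9% with no filter and 29.4% (without AC576) to 68.1% (without AC595) leaving out 1 line. No named gene turned its direction where it was called. Precision is limited by the 2 lines of each strain.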
